A study of Mus musculus with 12 samples.

Results

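The 8 transcription factors of the olfactory neuron lineage followed here were Ebf1, Ebf2, Ebf3, Lhx2, Emx2, Eya2, Sox11 and Sox4. They were taken by name, as every probe set that the platform annotation assigns to 1 of these genes alone, which gave 28 of the 45101 probe sets on the array and 8 of the 13628 genes tested. Microdissected olfactory epithelium of wild-type male C57BL/6J mice aged 6 weeks was profiled on 12 one-colour Affymetrix arrays, 3 in each of 4 groups. The groups were clodronate liposomes with removal of the olfactory bulbs (Lip-C OBX), empty liposomes with the same operation (Lip-O OBX), clodronate liposomes with a sham operation (Lip-C sham) and empty liposomes with a sham operation (Lip-O sham). Clodronate liposomes were used to deplete macrophages of the epithelium, by 50 µl given intranasally, and a subset of blood monocytes, by 200 µl given intravenously, and tissue was taken 48 h after surgery. All 12 samples thus came from animals that had received liposomes and an operation, and no untreated mouse is among them. Each array is labelled a biological replicate, but the labels do not say whether its tissue came from 1 mouse or from several, and the p-values measure the spread between these samples.

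The olfactory epithelium makes new sensory neurons throughout life from basal stem cells, by way of precursors that divide, immature neurons that grow an axon to the olfactory bulb, and mature neurons that carry odorant receptors. Removing the bulb takes away the target of these axons, after which mature neurons die and basal cells respond. EBF proteins, also called O/E or Collier-Olf-Ebf factors, bind sites near genes of olfactory neurons such as Omp; LHX2 is a LIM homeodomain protein that mouse olfactory neurons need to mature; EMX2 is a homeodomain protein needed in mice for normal expression of many odorant receptor genes; EYA2 is a phosphatase and coactivator that works with proteins of the sine oculis homeobox family; SOX4 and SOX11 are SoxC HMG-box proteins of newly formed neurons.

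The tissue carried the markers of olfactory epithelium: Omp, the marker of mature sensory neurons, averaged 12330 ± 1192 in Lip-C OBX mice, 8610 ± 2548 in Lip-O OBX mice, 15572 ± 979 in Lip-C sham mice and 16858 ± 1173 in Lip-O sham mice (SD, n = 3 each). The arrays had a median signal of 117.5 to 134.2 and a 40th percentile of 65.3 to 79.3. Arrays of 1 group correlated at 0.970 to 0.987 over the genes tested, each by its brightest probe set. All 8 genes lay above the 40th percentile on all 12 arrays, and 25 of their 28 probe sets passed the filter on dim signals. The other 3, all of Sox4 (1443778_at, 1455867_at and 1458332_x_at), were dim, with signals between 1.3 and 75.2, and were not tested. Signal is the authors' linear probe set intensity; each gene is given by its brightest probe set, and no level is set against that of another gene. Changes are on the log2(signal + 16) scale with the standard error from limma, tested over all genes, and a gene is called where its Benjamini-Hochberg adjusted p is under 0.05. In this bulk tissue, fewer cells of a type and less RNA per cell cannot be told apart.

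The promoters of 6 of the 8 genes were found in the RefSeq table (assembly GRCm38.p6), in 8 windows that run from 250 bases before to 50 bases after a transcription start. Those of Ebf2 and Eya2 are not shown. Of the windows printed here, 3 hold a letter match to a motif of these factor families. The printed windows are those of 4 genes. Ebf3 and Emx2 were lower, and Sox11 and Sox4 higher, on average after bulb removal (below). These 4 are a selection, and the genes did not all move together. The windows printed are as follows. The 4 windows are Sox11 at chr12:27342669-27342968 (minus strand), Sox4 at chr13:28953650-28953949 (minus strand), Ebf3 at chr7:137314396-137314695 (minus strand) and Emx2 at chr19:59458440-59458739 (plus strand), each read 5′ to 3′ along the gene, with motif matches in capitals.
Sox11: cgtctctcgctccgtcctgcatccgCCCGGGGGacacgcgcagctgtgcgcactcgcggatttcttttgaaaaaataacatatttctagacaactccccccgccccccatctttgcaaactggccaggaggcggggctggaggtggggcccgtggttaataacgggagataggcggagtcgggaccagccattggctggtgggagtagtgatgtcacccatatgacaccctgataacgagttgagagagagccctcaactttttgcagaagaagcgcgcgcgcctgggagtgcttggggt
Sox4: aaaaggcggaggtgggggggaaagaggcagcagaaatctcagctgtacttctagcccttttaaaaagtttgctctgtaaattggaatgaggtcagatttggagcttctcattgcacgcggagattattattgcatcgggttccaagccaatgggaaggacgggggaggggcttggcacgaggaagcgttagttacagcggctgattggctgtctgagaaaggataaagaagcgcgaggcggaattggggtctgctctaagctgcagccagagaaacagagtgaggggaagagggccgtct
Ebf3: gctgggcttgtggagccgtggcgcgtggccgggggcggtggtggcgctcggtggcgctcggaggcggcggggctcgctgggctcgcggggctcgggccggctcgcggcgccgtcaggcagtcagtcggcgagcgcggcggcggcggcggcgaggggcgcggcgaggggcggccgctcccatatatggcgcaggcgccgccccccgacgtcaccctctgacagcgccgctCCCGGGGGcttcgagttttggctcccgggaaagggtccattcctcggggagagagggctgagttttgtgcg
Emx2: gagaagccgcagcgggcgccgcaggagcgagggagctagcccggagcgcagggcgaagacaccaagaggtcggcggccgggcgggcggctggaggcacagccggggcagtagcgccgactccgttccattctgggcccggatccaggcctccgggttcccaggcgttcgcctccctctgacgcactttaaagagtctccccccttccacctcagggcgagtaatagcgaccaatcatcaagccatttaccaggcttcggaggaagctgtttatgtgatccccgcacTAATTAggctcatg

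In all, 4 motifs were searched on both strands. The EBF palindrome core, CCCNNGGG, occurred in 3 of the 8 windows, at base 26 of Sox11, at base 230 of Ebf3 and as overlapping matches in a Lhx2 window that is not printed, and in 13.7% of all 32851 promoter windows of this length. The homeodomain hexamer TAATTA occurred in 1 of the 8, at base 287 of Emx2, and in 5.29% of all windows. The SoxC core ACAAAG occurred in 0 of the 8 and in 18.7% of all windows, and the E-box core CAGATG of NeuroD-type factors in 1 of the 8, the same Lhx2 window, and in 17.2% of all. The matches are letters in a window and not bound sites. The EBF core was thus found for Ebf3 and Lhx2, which were lower on average after bulb removal, and for Sox11, which was higher. Whether the motif bears on these changes was not tested.

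Bulb removal was accompanied by lower signals of Ebf1, Ebf2, Ebf3, Lhx2 and Emx2 and by higher signals of Eya2, Sox11 and Sox4. Averaged over both liposome treatments, all 8 genes were called, 5 lower and 3 higher, where 13.5% of all genes tested were called lower and 19.2% higher. On the brightest probe sets, the changes were between -0.25 for Lhx2 and -0.41 for Emx2 among the genes that fell. Among those that rose they were between 0.46 for Sox4 and 0.70 for Eya2. These sizes depended on the probe set: the kept probe sets of Ebf1 changed by -0.82 to -0.25 and those of Sox4 by 0.20 to 0.46. For Emx2 and Sox11 the average joins unequal parts, given below. The calls of 7 genes held when any 1 array was left out; that of Lhx2 (adjusted p = 0.0236) was lost without Lip-C OBX replicate 1 or 2, Lip-C sham replicate 2 or Lip-O sham replicate 3, at an adjusted p of 0.0534 to 0.0576. At the level of probe sets, 24 of the 25 kept probe sets were called for the same average, 13 lower and 11 higher, and the 1 that was not, Sox4 1419157_at, changed by 0.20 ± 0.10. Probe sets of 1 gene measure the same RNA and are not replicates.

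**Figure D1:**
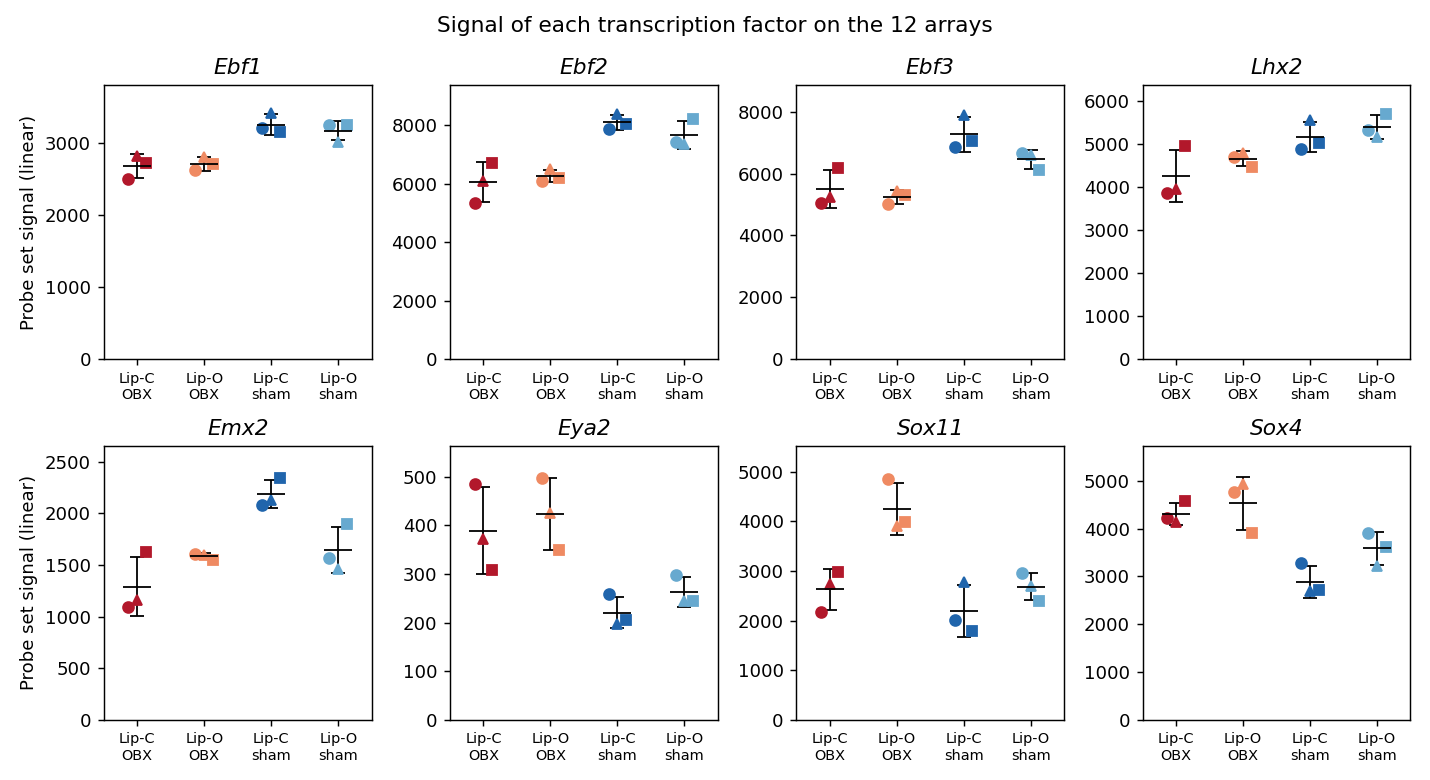
Signal (linear probe set intensity, y axis from 0) of the 8 genes on each of the 12 arrays, by group; circles, triangles and squares are replicates 1, 2 and 3, and the bars give mean ± SD (n = 3). Ebf1, Ebf2 and Ebf3 lie lower in both OBX groups than in both sham groups, Eya2 lies higher in both, Emx2 is lowest in Lip-C OBX mice and highest in Lip-C sham mice, and Sox11 is highest in Lip-O OBX mice.

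The 3 EBF genes fell together. Ebf2 had signals of 5353, 6093 and 6720 in Lip-C OBX mice, against 7873, 8383 and 8056 in Lip-C sham mice. Under empty liposomes it had 6102, 6500 and 6208 in OBX mice and 7430, 7368 and 8211 in sham mice. Every OBX array was thus below every sham array. Ebf2 fell by 0.43 ± 0.09 after bulb removal in Lip-C mice (adjusted p = 0.0126) and by 0.29 ± 0.09 in Lip-O mice (adjusted p = 0.0455).

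Ebf3 had 5040, 5243 and 6183 in Lip-C OBX mice, against 6857, 7907 and 7038 in Lip-C sham mice. With empty liposomes the values were 5003, 5425 and 5304 in OBX mice and 6665, 6593 and 6105 in sham mice. Again the operated and sham arrays did not overlap under either treatment. Ebf3 fell by 0.41 ± 0.09 in Lip-C mice (adjusted p = 0.0173). In Lip-O mice it fell by 0.30 ± 0.09 (adjusted p = 0.0474, or 0.0542 with the replicate number as a block).

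Ebf1, which B cells, fibroblasts and bone-forming cells also express, had 2501, 2823 and 2714 in Lip-C OBX mice, against 3203, 3412 and 3144 in Lip-C sham mice. Its signals in Lip-O OBX mice were 2619, 2804 and 2702, against 3245, 3013 and 3246 in Lip-O sham mice. The groups did not overlap in either comparison. Ebf1 fell by 0.28 ± 0.07 in Lip-C mice (adjusted p = 0.0270), while in Lip-O mice its change was -0.22 ± 0.07 (adjusted p = 0.0546). A dimmer probe set of Ebf1, 1457441_at, was also lower after bulb removal. It had 160, 170 and 190 in Lip-C OBX mice, 124, 116 and 123 in Lip-O OBX mice, 231, 305 and 268 in Lip-C sham mice and 290, 288 and 239 in Lip-O sham mice, and in the fit over all probe sets it fell by 0.58 ± 0.12 in Lip-C mice (adjusted p = 0.0132) and by 1.07 ± 0.12 in Lip-O mice (adjusted p = 0.00108).

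All 5 kept probe sets of Ebf1, 3 of Ebf2 and 3 of Ebf3 had lower means after bulb removal under both treatments. Of these 11, 10 were called in Lip-C mice and 6 in Lip-O mice in the fit over all probe sets. The brightest probe sets of Ebf2 and Ebf3 were not among those 6, with an adjusted p of 0.0595 and 0.0607 there. Of the 6, 1460666_a_at of Ebf3 had an adjusted p of 0.0491, or 0.0590 with the replicate number as a block, and was kept in 3 of the 12 fits that left out 1 array. The pairwise calls on the brightest probe sets depended on single arrays. That of Ebf2 in Lip-O mice was lost in 10 of the 12 fits that each left out 1 array, all but those without Lip-C OBX replicate 1 or 3, and that of Ebf3 in 9, all but these and the fit without Lip-C sham replicate 2. In Lip-C mice Ebf2 was called in all 12 fits, Ebf1 was lost without Lip-C OBX replicate 1 or any Lip-C sham array, and Ebf3 without Lip-C OBX replicate 1 or 2 or Lip-C sham replicate 2. In the probe set fit, 1416302_at and 1457441_at of Ebf1 and 1449101_at of Ebf2 were called for Lip-O mice in all 12.

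Ebf4, the remaining gene of the family and not among the 8, fell as well. Its group means were 1445 in Lip-C OBX mice, 1154 in Lip-O OBX mice, 2767 in Lip-C sham mice and 1742 in Lip-O sham mice. It fell by 0.94 ± 0.14 after bulb removal in Lip-C mice (adjusted p = 0.00498) and by 0.60 ± 0.14 in Lip-O mice (adjusted p = 0.0171, lost without Lip-O OBX replicate 1 or 2).

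Markers of other cells that express Ebf1 were set beside it. The summed signal of 7 B cell markers was 769 to 980 in Lip-C OBX mice, 550 to 963 in Lip-O OBX mice, 448 to 756 in Lip-C sham mice and 407 to 1009 in Lip-O sham mice; Cr2 lay under the 40th percentile on every array and 0 of the 5 tested markers were called in the 4 comparisons between groups. The 7 fibroblast and mural cell markers summed to 33530 to 55028 in Lip-C OBX mice, 29935 to 52223 in Lip-O OBX mice, 20075 to 26545 in Lip-C sham mice and 30940 to 56448 in Lip-O sham mice, and 3 osteoblast markers to 2507 to 5334, 3170 to 6865, 1261 to 1502 and 5919 to 7780 in the same order of groups. In Lip-C mice, where Ebf1 fell after bulb removal, 4 fibroblast markers rose (0 or 1 without Lip-C OBX replicate 1 or 2 or any Lip-C sham array) and 2 osteoblast markers (0 or 1 without Lip-C OBX replicate 1 or 2 or Lip-C sham replicate 2 or 3). Under Lip-C in sham mice, 2 osteoblast markers fell (1 without any Lip-C sham array or Lip-O sham replicate 2 or 3) and 0 fibroblast markers were called. Ebf1 changed by 0.04 ± 0.07 there (adjusted p = 0.810 in limma). The part of these cells in the level of Ebf1 was not tested.

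The homeodomain genes differed from each other. Lhx2 had 3863, 3956 and 4954 in Lip-C OBX mice, against 4887, 5555 and 5036 in Lip-C sham mice, with replicate 3 of the OBX group inside the sham range. Lip-O OBX mice had 4703, 4806 and 4471, against 5342, 5163 and 5697 in Lip-O sham mice, with no overlap. Its changes were -0.28 ± 0.10 in Lip-C mice (adjusted p = 0.0738) and -0.21 ± 0.10 in Lip-O mice (adjusted p = 0.170), and neither was called. Without Lip-C OBX replicate 3 the change in Lip-C mice was -0.40 (adjusted p = 0.0118).

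Emx2 had 1091, 1163 and 1622 in Lip-C OBX mice, against 2086, 2133 and 2348 in Lip-C sham mice, and the ranges did not overlap. Lip-O OBX mice had 1603, 1602 and 1551, against 1572, 1463 and 1894 in Lip-O sham mice, where the OBX values lay within the sham range. Like Lhx2, Emx2 is measured by a single probe set. Emx2 fell by 0.77 ± 0.14 in Lip-C mice (adjusted p = 0.00810), a call that held in all 12 fits that left out 1 array. In Lip-O mice its change was -0.04 ± 0.14 (95% interval -0.36 to 0.27, adjusted p = 0.865). The difference between these changes was -0.73 ± 0.20 (interval -1.18 to -0.28) and did not pass the adjustment over all genes in limma (adjusted p = 0.125).

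Eya2 rose. It had 485, 372 and 309 in Lip-C OBX mice, against 258, 198 and 206 in Lip-C sham mice. Under empty liposomes the signals were 496, 424 and 348 in OBX mice and 297, 245 and 245 in sham mice. Every OBX value exceeded every sham value. Eya2 rose by 0.76 ± 0.18 in Lip-C mice (adjusted p = 0.0177) and by 0.65 ± 0.18 in Lip-O mice (adjusted p = 0.0277), a fold change of 1.69 in Lip-C and 1.57 in Lip-O mice on the scale with 16 added. The call in Lip-C mice was lost without Lip-C OBX replicate 1 or 2 or Lip-C sham replicate 2 or 3, and that in Lip-O mice without Lip-O OBX replicate 1 or 2 or Lip-O sham replicate 2 or 3. A single probe set measures this gene.

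Sox4 had 4216, 4127 and 4575 in Lip-C OBX mice, against 3275, 2683 and 2712 in Lip-C sham mice, with no overlap. Lip-O OBX mice had 4771, 4924 and 3897, against 3910, 3221 and 3617 in Lip-O sham mice, and the lowest OBX array lay just under the highest sham array. Sox4 rose by 0.58 ± 0.12 in Lip-C mice (adjusted p = 0.0112), with the call kept in all 12 fits that left out 1 array. In Lip-O mice its change was 0.33 ± 0.12 (adjusted p = 0.0701), and 0.44 without Lip-O OBX replicate 3 (adjusted p = 0.0278). All 5 kept probe sets of Sox4 were called higher in Lip-C mice, by 0.54 to 0.58, and 0 of 5 in Lip-O mice, with changes of -0.13 to 0.33. In the fit over all probe sets these calls were kept in 5 to 10 of the 12 that left out 1 array, and that of the brightest in 9, all but those without Lip-C OBX replicate 1 or Lip-C sham replicate 2 or 3. The difference between treatments was 0.24 to 0.68 over the 5 probe sets, and 0 of 5 were called for it (adjusted p = 0.115 to 0.490 in limma).

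Sox11 had 2162, 2741 and 2973 in Lip-C OBX mice, against 2007, 2783 and 1782 in Lip-C sham mice, and these ranges overlapped. Lip-O OBX mice had 4861, 3903 and 3983, against 2951, 2690 and 2399 in Lip-O sham mice, and these did not overlap. Its change was 0.27 ± 0.18 in Lip-C mice (interval -0.12 to 0.66, adjusted p = 0.292), and it rose by 0.66 ± 0.18 in Lip-O mice (adjusted p = 0.0256, lost without Lip-O OBX replicate 1 or Lip-O sham replicate 2 or 3). Of its other 5 probe sets, 4 rose by 0.76 to 0.93 in Lip-O mice, each in all 12 fits that left out 1 array, and changed by 0.04 to 0.23 in Lip-C mice with no call.

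The last Sox11 probe set, 1436790_a_at, ran differently. It had 1929, 2374 and 2495 in Lip-C OBX mice, 2166, 3202 and 1852 in Lip-O OBX mice, 1226, 1389 and 921 in Lip-C sham mice and 1738, 1968 and 1656 in Lip-O sham mice. It rose by 0.95 ± 0.21 after bulb removal in Lip-C mice (adjusted p = 0.0176, lost without Lip-C OBX replicate 2 or Lip-C sham replicate 3) and changed by 0.39 ± 0.21 in Lip-O mice (adjusted p = 0.223). The probe sets of Sox11 thus disagreed on the treatment under which the gene rose, and the difference between treatments was positive for this probe set (0.55) and negative for the other 5 (-0.39 to -0.79), with 0 of 6 called.

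**Figure D2:**
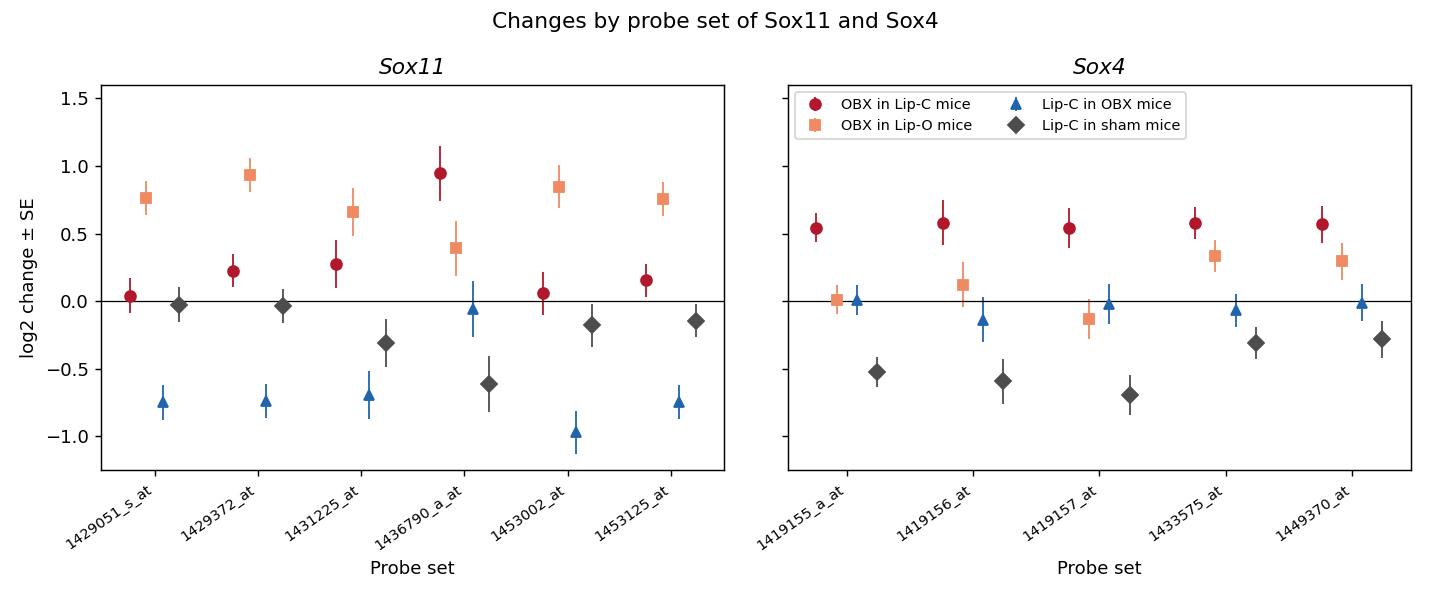
Log2 change (y axis) with its standard error for the 6 probe sets of Sox11 and the 5 kept probe sets of Sox4 (x axis) in 4 comparisons between groups (n = 3 arrays each). For Sox11, the change after bulb removal is larger under Lip-O than under Lip-C for every probe set but 1436790_a_at; for Sox4, the 5 changes in Lip-C mice lie between 0.54 and 0.58.

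By treatment, 6 of the 8 genes were called after bulb removal in Lip-C mice (4 lower and 2 higher), where 8.83% of all genes were called lower and 10.3% higher. In Lip-O mice 4 were called (2 lower and 2 higher), where 8.83% were called lower and 10.7% higher. Over all genes, 1403 were higher and 1203 lower in Lip-C mice, a split that became 774 and 1654 when arrays were centred on their medians; for the average over treatments 2611 and 1846 became 1708 and 2241. The values of 6 genes did not overlap between OBX and sham arrays in Lip-C mice, as for 40.2% of all genes, and of 6 in Lip-O mice, as for 37.7%. The median change of the 8 was -0.28 in Lip-C mice, against 0.04 over all genes, and -0.13 in Lip-O mice, against 0.05. The 8 genes ran in both directions, so that this median describes no common shift.

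**Figure D3:**
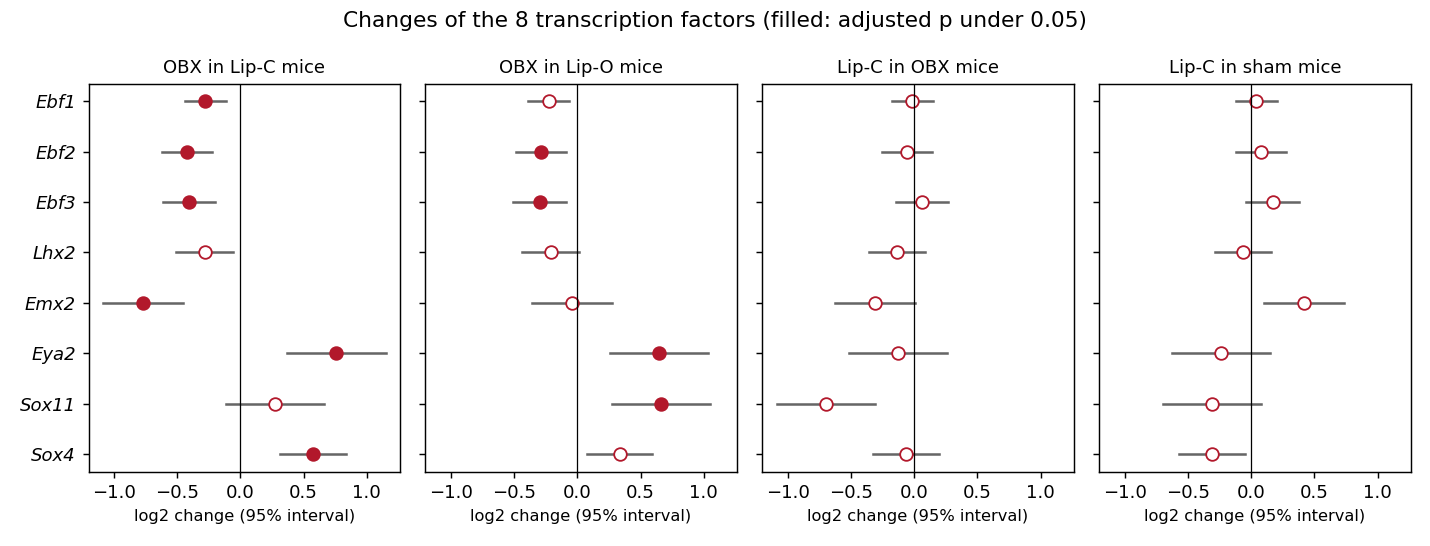
Log2 change (x axis) with its 95% interval for the 8 genes (rows) in the 4 comparisons between groups of 3 arrays; filled points have an adjusted p under 0.05. The panels for bulb removal hold 6 filled points in Lip-C mice and 4 in Lip-O mice, and the panels for Lip-C hold 0.

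Clodronate liposomes moved none of the 8 genes past the threshold. In sham mice 0 of 8 were called (2 at an unadjusted p under 0.05), where 2.08% of all genes were called. In OBX mice 0 of 8 were called (1 unadjusted), where 0.345% were. Averaged over both operations 0 were called (2 unadjusted), where 1.6% were, and for the difference between treatments in the response to bulb removal 0 were called (1 unadjusted), where 0% were, although 2403 of 13628 genes had an unadjusted p under 0.05 there. Lip-C and Lip-O arrays did not overlap for 2 of the 8 genes in sham mice, as for 29.6% of all genes, and for 1 in OBX mice, as for 16%.

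Those 3 cases were Emx2 and Ebf3 in sham mice and Sox11 in OBX mice. In sham mice, Emx2 changed by 0.42 ± 0.14 (interval 0.10 to 0.73, adjusted p = 0.132) and Ebf3 by 0.17 ± 0.09 (interval -0.04 to 0.38, adjusted p = 0.326), both higher in Lip-C mice on every array. In OBX mice, Sox11 changed by -0.70 ± 0.18 (interval -1.08 to -0.31, adjusted p = 0.146), and 2 of its 6 probe sets were called lower in the fit over probe sets, 1453002_at by 0.97 ± 0.16 (adjusted p = 0.0418) and 1453125_at by 0.75 ± 0.12 (adjusted p = 0.0437). Each of these 2 calls was kept in only 1 of the 12 fits that left out 1 array. Averaged over both operations Sox11 changed by -0.50 ± 0.12 (adjusted p = 0.0758, or 0.0403 without Lip-C sham replicate 2), and the same 2 probe sets were called lower (adjusted p = 0.0302 and 0.0315), calls kept in 4 and 2 of those 12 fits.

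For Sox4, 2 of the 5 kept probe sets were called lower in Lip-C sham than in Lip-O sham mice, 1419155_a_at by 0.52 ± 0.11 (adjusted p = 0.0266) and 1419157_at by 0.70 ± 0.15 (adjusted p = 0.0291), each kept in 8 of the 12 fits that left out 1 array. The brightest probe set changed by -0.31 ± 0.12 in that comparison (adjusted p = 0.163). In OBX mice the 5 changes under Lip-C were -0.14 to 0.01. On the brightest probe sets, the intervals of Ebf1, Ebf2, Ebf3 and Lhx2 under Lip-C lay between -0.36 and 0.38 in both operations, and those of Eya2 between -0.63 and 0.26. The dimmer Ebf1 probe set 1457441_at lay outside this range in OBX mice. There it changed by 0.46 ± 0.12 under Lip-C (interval 0.21 to 0.72, adjusted p = 0.176 in the fit over all probe sets). The other kept probe sets of Ebf1 changed by -0.02 to 0.17 in that comparison. In sham mice 1457441_at changed by -0.03 ± 0.12.

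The order of the group means followed the operation for 7 genes. Lhx2, Ebf1, Ebf2, Ebf3 and Emx2 had both OBX groups below both sham groups, and Eya2 and Sox4 had both above. Within these pairs of groups, Lip-C and Lip-O arrays overlapped for all of them except Ebf3 and Emx2 in sham mice. Emx2 ran from Lip-C OBX, the lowest, through Lip-O OBX and Lip-O sham to Lip-C sham, with Lip-O OBX arrays overlapping those of both its neighbours in that order and Lip-C sham arrays clear of the other 9. Sox11 ran from Lip-C sham through Lip-C OBX and Lip-O sham to Lip-O OBX, and only the Lip-O OBX arrays stood clear of the other 9.

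The genes that work beside the 8, in a list of 14 cofactors and paralogs of which 11 were tested, had 3 calls under each treatment after bulb removal. After bulb removal in Lip-C mice, 2 rose, Six4 (0.52 ± 0.10), a sine oculis homeobox partner of EYA proteins, and Zfp521 (0.67 ± 0.16), a zinc finger protein that binds EBF1, and 1 fell, Ebf4. In Lip-O mice 2 rose, Six4 (0.41 ± 0.10) and Eya1 (0.52 ± 0.14), and 1 fell, Ebf4. Ldb1, the cofactor of LHX2, changed by -0.40 ± 0.16 in Lip-C mice (adjusted p = 0.102) and by -0.07 ± 0.16 in Lip-O mice (adjusted p = 0.792). Under Lip-C, 1 gene of the 11 was called in sham mice and 0 in OBX mice. It was Ebf4, higher by 0.66 ± 0.14 (adjusted p = 0.0477), a call kept in 3 of the 12 fits that left out 1 array. Without 1 array the number that rose was 1 to 3 in Lip-C mice (1 without Lip-C OBX replicate 1 or 2 or Lip-C sham replicate 3) and 0 to 3 in Lip-O mice (0 without Lip-O OBX replicate 1 or 2 or Lip-O sham replicate 3, and 1 without Lip-O sham replicate 1). The median change of the 11 was 0.17 and 0.14 after bulb removal in Lip-C and Lip-O mice, against 0.04 and 0.05 over all genes.

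Other transcription factors of the lineage, 14 tested, included genes that changed under Lip-C. In sham mice 4 fell under Lip-C and in OBX mice 3 fell, and 0 rose; the first number was 2 without any 1 Lip-C sham array or Lip-O sham replicate 2 or 3. Neurod1, a basic helix-loop-helix factor of neuronal precursors, fell by 1.63 ± 0.19 in sham mice (adjusted p = 0.00622) and by 1.99 ± 0.19 in OBX mice (adjusted p = 0.00364). Neurog1, which acts before it, fell by 1.34 ± 0.15 and by 1.45 ± 0.15 (adjusted p = 0.00616 and 0.00399), and Hes6, a regulator of neuronal differentiation, by 0.71 ± 0.12 and 0.77 ± 0.12 (adjusted p = 0.0254 and 0.0239), all in the same order. The calls of Neurod1 and Neurog1 were kept in all 12 fits that left out 1 array. Those of Hes6 were kept in 7 of the 12 in each comparison, and lost without any Lip-C sham array or Lip-O sham replicate 2 or 3 in sham mice and without any Lip-C OBX array or Lip-O OBX replicate 1 or 2 in OBX mice. Under the 9 other alternatives, Neurod1 kept both calls and Hes6 kept each in 7. Neurog1 lost its call in sham mice when its probe sets were averaged. Its call in OBX mice was lost with only the compared groups in the fit. After bulb removal 4 of the 14 rose in Lip-C mice (Runx1, Hes1, Dlx5 and Sox2) and 1 fell (Uncx), and in Lip-O mice 2 rose (Runx1 and Neurog1). Runx1, a factor of neuronal precursors, rose by 0.52 ± 0.13 under each treatment. Which cells of the bulk tissue carried this rise was not tested. These numbers moved with single arrays: the number that rose in Lip-C mice was 0 without Lip-C OBX replicate 1 or 2 or Lip-C sham replicate 3, 1 without Lip-C sham replicate 2 and 2 without Lip-C OBX replicate 3 or Lip-C sham replicate 1, and that in Lip-O mice was 0 without Lip-O OBX replicate 1 or Lip-O sham replicate 3, 1 without Lip-O OBX replicate 2 and 6 without Lip-O OBX replicate 3. Uncx was lost without Lip-C OBX replicate 1 or 2, any Lip-C sham array or Lip-O sham replicate 2.

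Genes of olfactory transduction, among which sites for EBF proteins were first described, fell after bulb removal. Of 9 tested, 5 fell after bulb removal in Lip-C mice (median of the list -0.57) and 7 in Lip-O mice (median -0.99). The first number was 1 without Lip-C OBX replicate 1 or 2 or Lip-C sham replicate 2 or 3, 2 without Lip-C sham replicate 1 and 8 without Lip-O OBX replicate 3, and the second was 5 to 8 without 1 array. Pde1c, a phosphodiesterase of olfactory cilia, fell by 1.06 ± 0.19 and by 1.42 ± 0.19 in Lip-C and Lip-O mice. Omp fell by 1.01 ± 0.17 in Lip-O mice (adjusted p = 0.00397), and its change in Lip-C mice was -0.34 ± 0.17 (adjusted p = 0.176). Under Lip-C 0 of the 9 were called in sham or OBX mice. The summed signal of the 9 genes was 56632 to 69219 in Lip-C OBX mice and 40099 to 65084 in Lip-O OBX mice. It was 83384 to 89740 in Lip-C sham mice and 78080 to 89705 in Lip-O sham mice. The sum was thus lower after bulb removal under both treatments, as the EBF genes were. By treatment, the median of the list fell more in Lip-O mice. The brightest probe sets of Ebf1, Ebf2 and Ebf3 changed more in Lip-C mice, but Ebf1 1457441_at fell more in Lip-O mice. No gene of the list or of the 8 was called for the difference between treatments. The part of the transduction genes in the change of the EBF genes was not tested.

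Of 12 genes of immature neurons, which express SOX4 and SOX11, 2 fell after bulb removal in Lip-C mice (Tubb3 by 0.61 ± 0.17 and Dcx by 0.38 ± 0.09) and 1 rose in Lip-O mice (Marcksl1 by 0.46 ± 0.13); without 1 array these numbers were 0 to 3 each. The first was 0 without Lip-C OBX replicate 1 or Lip-C sham replicate 2, and 1 without Lip-C OBX replicate 2 or Lip-C sham replicate 1 or 3. The second was 0 without Lip-O OBX replicate 1 or 2 or any Lip-O sham array, and 3 without Lip-O OBX replicate 3. Averaged over treatments, 3 of the 12 rose and 2 fell. Gap43, the growth-cone protein of immature olfactory neurons, changed by 0.44 ± 0.19 (adjusted p = 0.129) and 0.28 ± 0.19 (adjusted p = 0.340) in Lip-C and Lip-O mice. The list summed to 31825 to 39688 in Lip-C OBX mice, 34997 to 42885 in Lip-O OBX mice, 34301 to 40320 in Lip-C sham mice and 34053 to 37882 in Lip-O sham mice, ranges that overlapped in every comparison. Of 8 genes of dividing cells, 3 rose after bulb removal in Lip-C mice (0 without Lip-C OBX replicate 1 or 2 or any Lip-C sham array, and 5 without Lip-C OBX replicate 3) and 0 in Lip-O mice. Their changes were positive for 8 of 8 in Lip-C mice (median 0.63) and for 7 of 8 in Lip-O mice (median 0.44). Averaged over treatments 4 rose, and 0 were called for the difference between treatments. Their sums were 8991 to 11866 in Lip-C OBX mice, 9487 to 13184 in Lip-O OBX mice, 7450 to 7729 in Lip-C sham mice and 7994 to 10594 in Lip-O sham mice; the part of dividing cells in the rise of Sox4 was not tested.

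**Figure D4:**
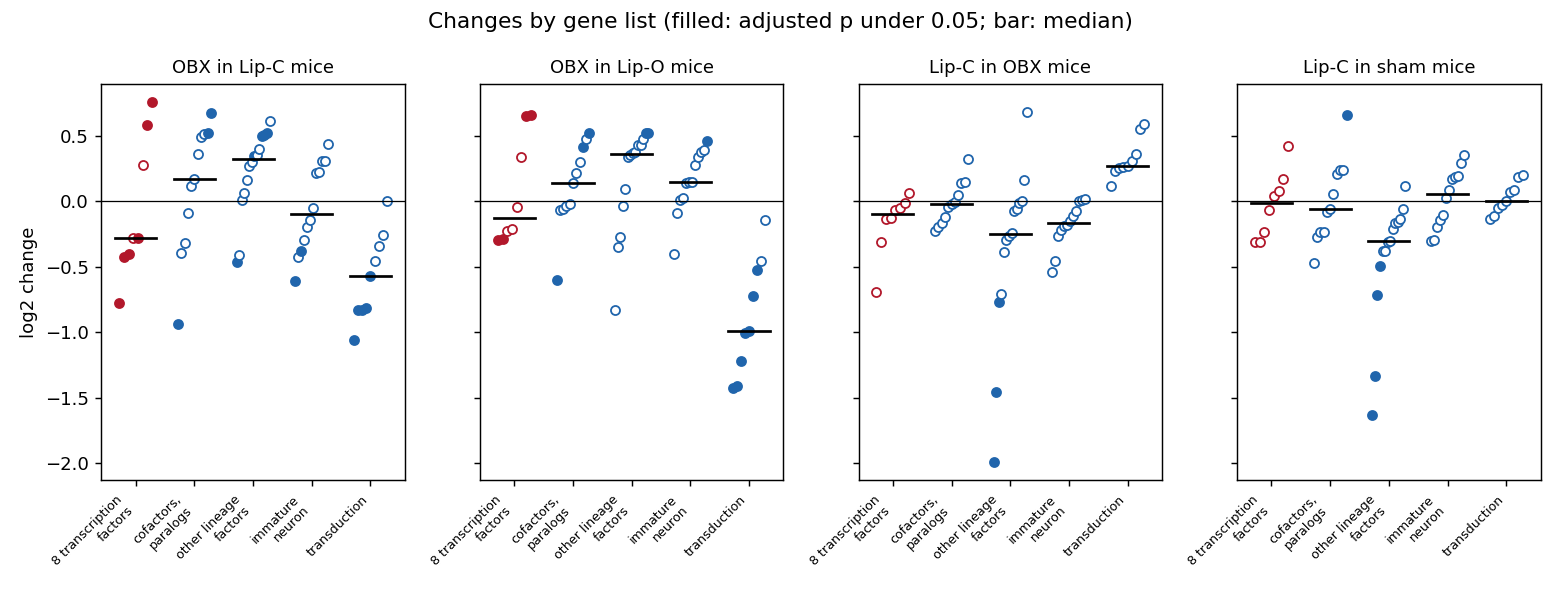
Log2 change (y axis) of the 8 transcription factors (red) and of 4 related gene lists (blue) in the 4 comparisons between groups of 3 arrays; each point is a gene, filled where its adjusted p is under 0.05, and bars are medians. The transduction genes lie lowest after bulb removal, with a median of -0.57 under Lip-C and -0.99 under Lip-O, and the lowest points in both Lip-C panels are Neurod1 and Neurog1.

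Markers of further cells moved with bulb removal as well. Of 10 macrophage markers, 7 rose in Lip-C mice (3 without Lip-C OBX replicate 1 or 2 or Lip-C sham replicate 2 or 3) and 5 in Lip-O mice (3 without Lip-O OBX replicate 1 or Lip-O sham replicate 2 or 3), and they summed to 6270 to 8428 in Lip-C OBX mice, 7061 to 11542 in Lip-O OBX mice, 3649 to 4280 in Lip-C sham mice and 4887 to 6412 in Lip-O sham mice. Under Lip-C, 2 of them fell in sham mice, Aif1 and Csf1r, and 0 in OBX mice. The count of 2 became 0 without Lip-C OBX replicate 1 or 2, Lip-O OBX replicate 2 or any of the 6 sham arrays. Csf1r, the receptor for the growth factor of macrophages, fell by 0.83 ± 0.18 in sham mice (adjusted p = 0.0427), and Aif1, a calcium-binding protein of macrophages, by 0.90 (adjusted p = 0.0471), each kept in 3 of the 12 fits that left out 1 array. Of 6 horizontal basal cell markers, 3 rose in Lip-C mice and 2 in Lip-O mice. Of 4 markers of ensheathing and Schwann cells, S100b rose in Lip-C mice and Sox10 in Lip-O mice. The number in Lip-C mice was 0 without Lip-C OBX replicate 1 or 2 or Lip-C sham replicate 2 or 3 and 2 without Lip-C OBX replicate 3, and that in Lip-O mice was 2 without Lip-C OBX replicate 2 or 3. Of 6 sustentacular cell markers, Cyp1a2 rose under each treatment. Of 5 ciliated cell markers, 2 rose in Lip-C mice (0 without Lip-C OBX replicate 1 or 2 or Lip-C sham replicate 2 or 3) and 2 fell in Lip-O mice. The part of these cells in the changes of Eya2, Sox4 and Sox11 was not tested.

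Among all genes tested, those with the pattern nearest to each of the 8 were found by Pearson's r of log2 values over the 12 arrays. These arrays differ in operation and in liposome treatment, so that r mixes differences between groups with those within them, and no test is given. Nearest to Ebf2 was Il18 (r = 0.982, or 0.927 within groups), to Ebf3 Ppargc1b (0.973 and 0.893) and to Ebf1 Nipsnap1 (0.974 and 0.832). Nearest to Lhx2 was Tmem101 (0.944 and 0.835) and to Emx2 Sv2a (0.944 and 0.797). Nearest to Eya2 was Zfp750 (0.986 and 0.959), to Sox4 Smim3 (0.955 and 0.768) and to Sox11 Map2 (0.940 and 0.709). The next in line were Sowaha for Ebf2, A630026N12Rik for Ebf3, Ptbp2 for Ebf1, Wbp1 for Lhx2, BC005537 for Emx2, Nmt1 for Eya2, Dll1, which encodes a Notch ligand, for Sox4 and Dcbld1 for Sox11. None of the nearest genes was another of the 8.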

How the data were processed

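The authors deposited linear intensity per probe set, and the values themselves show that every array had been scaled to a 2%-trimmed mean of 500. Total RNA was turned into biotinylated cRNA, per the labels' protocols. How probes were summarised is not stated in those protocols. Values were taken as log2(signal + 16), on which scale changes of dim genes are understated, with no further scaling. A filter kept 28986 probe sets, those that exceeded the 40th percentile on 3 or more arrays, and 1 probe set per gene, the brightest, was tested (13628 genes). By GEO's platform annotation, 34945 probe sets name 1 gene, 932 name several and 9160 name none. The means of the 4 groups were fitted with limma 3.58.1 in R 4.3.3 (8 residual degrees of freedom), with 7 two-sided comparisons, each adjusted by the Benjamini-Hochberg method. A second fit covered all kept probe sets. Exact permutation of 3 against 3 arrays reaches p = 0.1 at the lowest and was therefore not used. The number of arrays limits the precision: the median standard error of a change was 0.124. The fit was tested on simulated data.

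Replicate numbers come from the sample titles. Deviations from group means of same-numbered arrays correlated at over 0.1 for all 3 numbers only between Lip-O OBX and Lip-O sham arrays (0.312, 0.277 and 0.134), and for 10 of 18 pairs in all, so the fit with the number as a block is printed where it changed a call there. The named genes are the 8 transcription factors, up to 4 called genes of each of 13 lists, fixed reference markers, and the 2 genes of the nearest pattern. The 8 genes, the lists and the comparisons were chosen with earlier results of these data known. The alternatives were other pseudocounts, quantile normalization, centring on medians, no filter, averaging the probe sets of a gene, only the compared groups, an unmoderated model, the block and leaving out each array.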

Additional observations from a re-analysis of the deposited data

How the results depend on the processing

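No called change of the 8 genes turned its sign under an alternative. Among their values under the alternatives, 1093 kept their side of the threshold, 52 lost a call and 7 gained one. The number of the 8 called after bulb removal in Lip-O mice was 4, and became 2 with quantile normalization, 2 with no filter on dim probe sets and 2 with only the compared groups in the fit; leaving out 1 array gave 0 to 4, with 0 without Lip-O OBX replicate 1 or Lip-O sham replicate 2 or 3, 1 without Lip-O OBX replicate 2, and 2 without Lip-C OBX replicate 2, Lip-C sham replicate 1 or 3 or Lip-O sham replicate 1. In Lip-C mice the number was 6 and ran from 3 (without Lip-C OBX replicate 1 or Lip-C sham replicate 2) to 7, and the average over treatments gave 7 to 8. The average Lip-C effect, 0, became 1 (Sox11, adjusted p = 0.0377) when probe sets of a gene were averaged, and 0 to 1 without 1 array, with 1 without Lip-C sham replicate 2. Ebf1 passed in Lip-O mice when its probe sets were averaged (-0.52, adjusted p = 0.00289) and in the unmoderated model (adjusted p = 0.0280), where Eya2 was lost (adjusted p = 0.0523), and Lhx2 in Lip-C mice with arrays centred on their medians (-0.37, adjusted p = 0.0361). With the replicate block the number called was 3 in Lip-O mice and 6 in Lip-C mice, and Ebf3 in Lip-O mice was the only call of the 8 that it changed. Between groups it also ended the calls of Ebf4 and Sox2 under Lip-C in sham mice, of Aldh1a7 under Lip-C in OBX mice, of Uncx and Dcn after bulb removal in Lip-C mice, and, among probe sets, of 1453002_at and 1453125_at under Lip-C in OBX mice, 1460666_a_at after bulb removal in Lip-O mice and 1419156_at, 1419157_at and 1448293_at in Lip-C mice. Over all genes, leaving out 1 array gave 847 to 3040 calls for bulb removal in Lip-C mice (2606 with all), 1413 to 2795 in Lip-O mice (2666), 17 to 316 for Lip-C in sham mice (283), 7 to 74 in OBX mice (47), 84 to 257 for the average Lip-C effect (218) and 0 to 157 for the interaction (0; 157 without Lip-O OBX replicate 2); the other alternatives gave 1725 to 2985, 1577 to 2965, 56 to 398, 2 to 67, 107 to 244 and 0 to 1. The causes of these shifts were not tested. Alternatives for the listed genes and for single probe sets were added after the data were seen: no called change had the opposite sign, 521 values lost a call and 18 gained one. With 3 arrays a group, the number of arrays limits the precision.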
